A study of Mus musculus with 29 samples.

Results

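A set of 7 endothelial junction genes was followed in the brain of mice after stroke: Cldn5, Ocln, Tjp1, Esam, Cdh5, F11r and Jam2. They were chosen by name, with earlier results of these data known. All 7 were present among the 19704 genes of the young brain tables and among the 27514 of the aged ones. Their level was the summed count of a library's cells of 1 annotated type, expressed as CPM, that is, scaled to the same total for every library and type. The study profiled single cells by Drop-seq, in which barcoded beads tag the transcripts of each cell in a droplet. Each of the 18 brain libraries came from 4 to 5 pooled hemispheres and held sorted microglia with intermediate CD45, leukocytes with high CD45, and endothelial cells that lacked CD45 and carried high Ly6c. All mice were C57BL/6J, and all brains were digested with papain in the presence of actinomycin D, a transcription inhibitor, Brilliant Blue G, which blocks the P2X7 receptor, and AP-5, which blocks NMDA receptors.

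Young males of 8 to 10 weeks gave 4 libraries at day 2 after sham surgery, 4 at day 2 after stroke, made by transiently blocking the middle cerebral artery, and 4 at day 14 after stroke. Mice of 17 to 20 months gave 2 libraries at day 2 after sham surgery (1 male, 1 female), 3 at day 2 after stroke (1 male, 2 female) and 1 female library at day 14 after stroke. The sham libraries were all from day 2, so at day 14 the effect of stroke and that of time since surgery cannot be told apart. The young and aged groups also differ in sex and in the set of genes their tables hold. Their deposited values differ too, in the share of whole numbers and in erythroid transcripts, as given below. These differences cannot be told apart from that of age. Replicates were pools of hemispheres, and the labels do not say how many animals or experiments separate them, so p-values measure the spread between these pooled libraries.

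Endothelial cells of the brain are joined into a sheet by tight and adherens junctions, which limit the passage of solutes and cells between blood and brain. In tight junctions, claudins such as Cldn5 and the protein occludin (Ocln) meet their partners on the next cell, and the cytoplasmic scaffold ZO-1, product of Tjp1, ties them to actin. The immunoglobulin-like molecules JAM-A (F11r), JAM-B (Jam2) and ESAM (Esam) also lie at these contacts, and VE-cadherin (Cdh5) builds the adherens junction. Loss of this barrier is a known feature of ischaemic stroke.

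On the mm10 build, with GENCODE M21 gene bounds, Cldn5 lies on chr16:18776847-18778262 (plus strand), Ocln on chr13:100496507-100552718 (minus), Tjp1 on chr7:65296165-65527781 (minus), Esam on chr9:37528078-37538319 (plus), Cdh5 on chr8:104101625-104144511 (plus), F11r on chr1:171437535-171464603 (plus) and Jam2 on chr16:84774123-84825928 (plus). The gene Gm29682 overlaps Cdh5 on the other strand, as the processed pseudogene Gm44795 does Tjp1, whose span also holds Gm44792 and Gm44794 on its own strand, and Jam2 holds the rRNA gene Gm25908 on its own strand. Whether the counting used strand is not given in the sources used here, so reads of these genes may be mixed. Symbols are the only identifiers in the tables.

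Promoters of the members that the results below turn on are shown to place these genes on the genome; the data hold no readout of promoter activity other than the transcript. RefSeq start sites (GRCm38.p6, the mm10 build) were matched for 4 of the 7 members (Cldn5, Ocln, Tjp1 and F11r), with 2 windows for Ocln. The 250 bases before the start are printed 5′ to 3′ on the gene's own strand, in lower case, with matches to the searched motifs in capitals. The windows are chr7:65371245-65371494 for Tjp1, chr13:100552719-100552968 for the upstream start of Ocln and chr16:18776597-18776846 for Cldn5.
Tjp1: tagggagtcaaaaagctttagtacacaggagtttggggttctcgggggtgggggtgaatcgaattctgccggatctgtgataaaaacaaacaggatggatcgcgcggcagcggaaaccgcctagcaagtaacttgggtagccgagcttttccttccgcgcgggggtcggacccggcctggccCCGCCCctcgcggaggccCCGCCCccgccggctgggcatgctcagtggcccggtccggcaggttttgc
Ocln: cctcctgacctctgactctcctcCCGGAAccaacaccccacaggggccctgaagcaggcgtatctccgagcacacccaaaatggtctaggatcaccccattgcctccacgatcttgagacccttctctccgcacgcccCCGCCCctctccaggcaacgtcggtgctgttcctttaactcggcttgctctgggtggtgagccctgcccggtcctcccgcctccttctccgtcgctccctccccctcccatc
Cldn5: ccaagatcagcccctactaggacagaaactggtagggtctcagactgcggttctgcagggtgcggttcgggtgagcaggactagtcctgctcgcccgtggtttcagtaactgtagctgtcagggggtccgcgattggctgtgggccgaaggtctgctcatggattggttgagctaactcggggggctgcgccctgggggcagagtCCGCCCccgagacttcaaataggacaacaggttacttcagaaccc

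Motifs were searched on both strands by their letters, so that a match on the other strand appears as its reverse complement. The GC box bound by Sp1, GGGCGG, was found in all 5 windows and in 32.7% of 32851 promoter windows of the same length: it started at -68 and -50 from the start of Tjp1, at -112 from the start of Ocln, at -45 from that of Cldn5 and at -50 from that of F11r. The ETS core CCGGAA was found at -227 from the start of Ocln, and in 12.03% of all windows. The AP-1 site TGACTCA, found in 4.46% of all windows, occurred at -109 from the start of F11r. TCF/LEF (CTTTGAT, 3.21% of windows), forkhead (TGTTTAC, 3.17%) and hypoxia-response (ACGTG, 16.6%) letters were not in these windows. The windows printed had a GC content of 63.2% for Tjp1, 64.0% for Ocln and 59.6% for Cldn5, against a mean of 53.2% over all windows. The RefSeq start used for Tjp1 lies inside the GENCODE span of the gene, and the 30 bases after it were not found in a GENCODE transcript, unlike those of the other windows.

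The brain libraries held 55268 cells, of which 7627 were annotated as endothelial cells (EC) in the deposited metadata. A library held 176 to 1171 EC and 58613 to 730352 summed EC counts. The median count per endothelial cell was 286 to 606 in young sham libraries, 476 to 1008 at day 2 after stroke and 304 to 732 at day 14. Libraries shared at most 3 cell barcodes pairwise. The highest mitochondrial percentage among the deposited cells was 3.51% to 6.44% in 5 young libraries (sham replicate 1 and replicates 1 and 2 of each stroke group) and 15.6% to 20.1% in the other libraries. The labels name no batch; these 5 libraries were set apart by that percentage alone, as the low-mitochondrial set. All 10 endothelial markers were detected in EC of every group. Their summed level was 24181 to 29882 CPM in young sham, 14620 to 19779 CPM at day 2 after stroke and 21634 to 25199 CPM at day 14. This list includes Cdh5 itself. Of 8 microglial markers, 6 were at 0 in EC of each young group and the sum reached at most 60.9 CPM. Venous markers summed to 509 to 798 CPM in young sham EC, 906 to 1341 CPM at day 2 and 213 to 783 CPM at day 14. Mural markers, of which Pdgfrb and Abcc9 were at 0 in every young group, summed to 117 to 567, 67.9 to 240 and 98.9 to 831 CPM, and monocyte or macrophage markers to 244 to 580, 132 to 804 and 76.6 to 850 CPM. Erythroid transcripts in young EC reached 3545 CPM in sham, 6069 CPM at day 2 and 9732 CPM at day 14. In EC of every aged group all 5 erythroid genes were at 0. The part of these cells or transcripts in the results was not tested.

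Among the cell types of the young brain, Cldn5, Ocln, Esam and Cdh5 were almost absent from microglia, Tjp1 and Jam2 were counted there at a lower level than in EC, and F11r at a higher one. In pooled microglia (18737 cells), Cldn5 stood at 0.0603 CPM, which is 0.00148% of its level in EC, and Esam at 0.956 CPM, or 0.0842%. Cdh5 (0.0433% of the EC level) and Ocln (0.201%) were also low there. Tjp1, in contrast, was counted in microglia at 66.1 CPM (20.7% of the EC level) and Jam2 at 64.0 CPM (14.5%). F11r, which leukocytes and platelets also carry, was counted in microglia at 152% of its EC level. It was also found in dendritic cells at 98.7 CPM, in monocyte-derived cells at 73.1 CPM and in border-associated macrophages at 50.6 CPM, and at 11.97 CPM in T cells. Cells annotated as mural (136 cells) had 1227 CPM of Cldn5, 142 CPM of Tjp1 and 523 CPM of Esam; they also had 780 CPM of the endothelial transporter Slco1a4, and endothelial RNA in that class was not tested. Types were defined by clustering these same cells, so these are levels without a test.

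Across 28 pools of cell type by group, log2(CPM + 10) of Cldn5 had a Pearson r of 0.994 with Ocln, 0.991 with Esam and 0.987 with Cdh5, but 0.854 with Tjp1, 0.858 with Jam2 and 0.316 with F11r. Tjp1 and Jam2 had an r of 0.942 with each other. Of 3520 genes with at least 50 CPM in EC, those most like Cldn5 were Synm, Cdc42ep1 and Pgm5 (r of 0.998 to 0.997). Slc1a1, Spock2 and Pgm5 came nearest to Ocln, and Jam2, Abcg2 (0.927) and Notch4 (0.925) to Tjp1. Palmd, Slc38a5 and Ramp2 were nearest to Esam, Jcad, Wwtr1 and Ushbp1 to Cdh5, and Plpp1, Cd34 and Tcaf1 to Jam2. No gene came as near to F11r: Slc46a3, Cttnbp2nl and Itga6 reached 0.836, 0.834 and 0.818. The pools share libraries, and the coefficients mainly reflect which types contain a transcript at all.

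At day 2 after stroke, the scaffold Tjp1 and the tight-junction protein Ocln were lower in EC of young mice than after sham surgery, whereas the 5 other members, Cldn5 included, did not pass the test. Tjp1 was at 425, 432, 479 and 406 CPM in sham replicates 1 to 4 and at 238, 201, 259 and 173 CPM in the stroke replicates. All 4 stroke libraries were thus below all 4 sham libraries. With means (± SD over 4 libraries) of 436 ± 30.6 and 218 ± 38.2 CPM, Tjp1 fell by 0.92 ± 0.21 on the log2 scale (SE; adjusted p = 0.0113, edgeR's quasi-likelihood test with Benjamini-Hochberg adjustment over 5833 genes).

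Ocln was at 208, 172, 186 and 107 CPM after sham surgery and at 86.6, 69.4, 103 and 117 CPM at day 2 after stroke. The groups overlapped, since sham replicate 4 was below stroke replicate 4. The mean went from 168 ± 43.5 to 94.1 ± 20.5 CPM, a log2 fold change of -0.77 ± 0.23 (edgeR adjusted p = 0.0380). This call was close to the threshold: DESeq2 gave an adjusted p of 0.0550, and leaving out any 1 of 6 of the 8 libraries (sham replicates 1, 2 and 3, stroke replicates 1, 2 and 3) gave adjusted p values of 0.0671 to 0.124. Thus 2 of 7 members were called, both lower. Of all genes tested, 13.3% were called (6.89% higher, 6.45% lower), and 20% had groups that did not overlap, as 1 of the 7 members did.

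**Figure D1:**
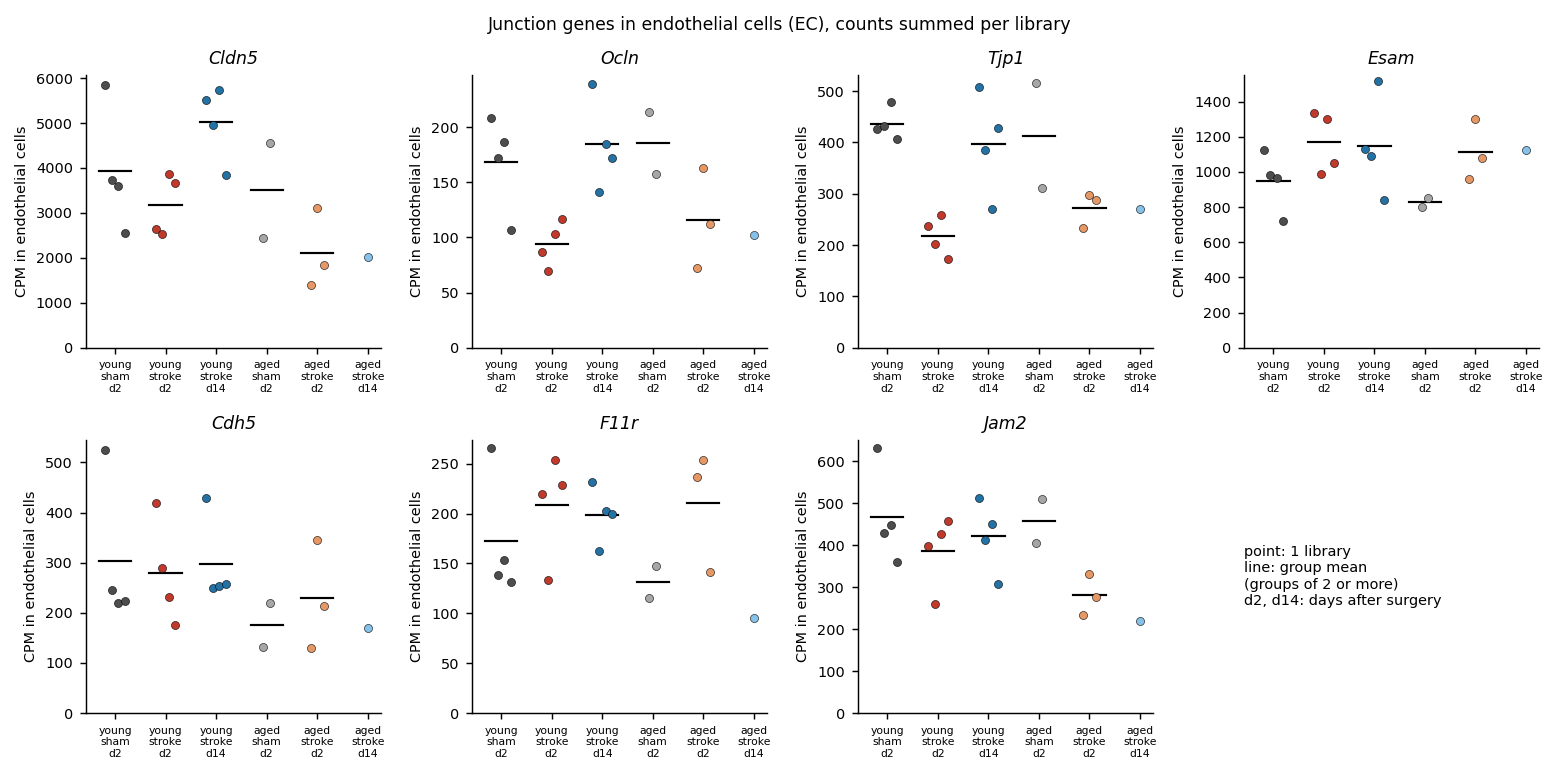
Level of each junction gene in endothelial cells (vertical axis, CPM of summed counts, linear from 0) in the 6 groups of mice (horizontal axis); each point is 1 library and each line the mean of a group of 2 or more. Tjp1 at day 2 after stroke in young mice (173 to 259 CPM) lies below every young sham library (406 to 479 CPM). The points of every other member overlap between young sham and young day 2 stroke.

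Cldn5, the claudin of the blood-brain barrier, was at 5856, 3723, 3592 and 2552 CPM in the sham libraries and at 2651, 2539, 3871 and 3673 CPM at day 2. Every stroke value but replicate 2 lay within the sham range. The means of 3931 ± 1386 and 3183 ± 686 CPM gave a log2 fold change of -0.20 ± 0.25 (edgeR adjusted p = 0.626). Within the low-mitochondrial set, the 1 sham library was at 5856 CPM against a mean of 2595 CPM for 2 stroke libraries, while in the other set the 3 sham libraries averaged 3289 CPM against 3772 CPM for 2 stroke libraries, so that the direction differed between the sets. For Tjp1 the same comparisons were 425 against 219 CPM and 439 against 216 CPM, and for Ocln 208 against 78.0 CPM and 155 against 110 CPM, lower after stroke in both sets. F11r (265 against 176 CPM in the low-mitochondrial set, 141 against 241 CPM in the other) and Jam2 (630 against 329 CPM and 411 against 443 CPM) differed in direction between the sets as Cldn5 did. Esam was higher after stroke in both (1127 against 1161 CPM and 890.0 against 1176 CPM) and Cdh5 lower in both (525 against 354 CPM and 230 against 203 CPM).

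None of the 3 members with immunoglobulin-like domains passed. Esam was at 1127, 983, 964 and 723 CPM after sham surgery and 1333, 989, 1300 and 1052 CPM at day 2, with a log2 fold change of 0.38 ± 0.22 (edgeR adjusted p = 0.251). F11r differed by 0.35 ± 0.23 on the log2 scale (209 ± 52.4 against 172 ± 62.9 CPM, edgeR adjusted p = 0.332). Its log2 fold change was 0.013 when cells under 500 counts were dropped, and it was not called there. Jam2 differed by -0.19 ± 0.22 on the log2 scale (386 ± 87.5 against 466 ± 116 CPM, edgeR adjusted p = 0.601). For the adherens-junction cadherin Cdh5, the values were 525, 246, 220 and 224 CPM after sham surgery and 419, 289, 231 and 175 CPM at day 2 (log2 fold change -0.06 ± 0.30, adjusted p = 0.909). Sham replicate 1, the only sham library of the low-mitochondrial set, had the highest sham value for 6 of the 7 members, all but Tjp1.

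At day 14, none of the 7 members was called against sham. By edgeR's quasi-likelihood test 0 of 5833 genes were called (356 genes, and 0 members, were under 0.05 without adjustment), and DESeq2 called 9 genes and 0 members; 3.43% of genes had groups that did not overlap. Tjp1 was at 508, 386, 270 and 427 CPM (398 ± 99.1), of which replicates 2 and 3 were below and replicate 1 above the sham range (log2 fold change -0.15 ± 0.21, adjusted p = 0.985). Cldn5 was at 5522, 4966, 5729 and 3848 CPM (5016 ± 843), 0.35 ± 0.25 above sham on the log2 scale (adjusted p = 0.918). Esam differed by 0.26 ± 0.22, F11r by 0.17 ± 0.24, Ocln by 0.09 ± 0.23, Cdh5 by -0.04 ± 0.30 and Jam2 by -0.15 ± 0.23. The comparisons of day 2 and day 14 with sham share the same 4 sham libraries.

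Between the times after stroke, Ocln and Tjp1 were higher at day 14 than at day 2. This comparison uses the same 4 day 2 libraries as that of day 2 with sham, so they are not independent. Ocln was at 239, 141, 185 and 172 CPM at day 14, above all 4 day 2 libraries, with a log2 fold change of 0.87 ± 0.23 (edgeR adjusted p = 0.0234). For Tjp1 the groups did not overlap either, and the log2 fold change was 0.78 ± 0.21 (adjusted p = 0.0258). Over all genes 11.2% were called (5.07% higher, 6.14% lower) and 19% had groups that did not overlap. Cldn5 differed by 0.55 ± 0.25 with an unadjusted p of 0.0428 and an edgeR adjusted p of 0.173, and its groups overlapped. Within same-numbered libraries it was higher at day 14 each time: 5522 against 2651, 4966 against 2539, 5729 against 3871 and 3848 against 3673 CPM. It was not called with the replicate number as a block. Esam (-0.12 ± 0.22), F11r (-0.17 ± 0.23), Jam2 (0.04 ± 0.22) and Cdh5 (0.02 ± 0.29) differed by less than their SE. Both calls were close to the threshold: with 1 library left out, Ocln was lost in 5 of 8 fits (day 2 replicates 1 and 2, day 14 replicates 1, 3 and 4; adjusted p up to 0.0986) and Tjp1 in 6 of 8 (day 2 replicates 1, 2 and 4, day 14 replicates 1, 2 and 4; adjusted p up to 0.1002).

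**Figure D2:**
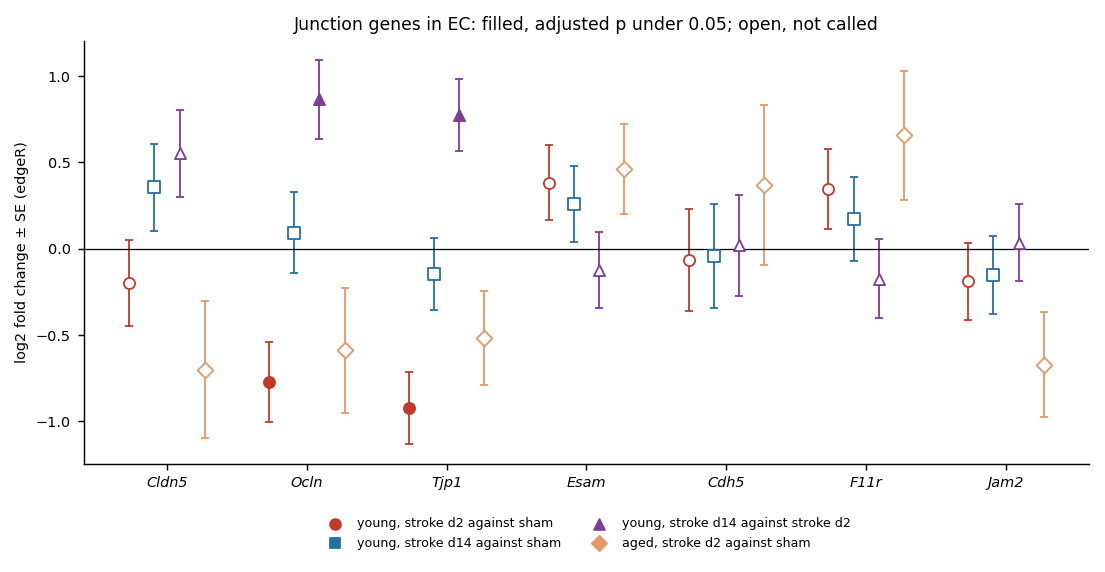
Log2 fold change of each junction gene in endothelial cells (vertical axis) with its SE (bars), in 4 comparisons marked by symbol, from edgeR's quasi-likelihood fits; filled symbols passed an adjusted p of 0.05 and open ones did not. At day 2 against sham in young mice Tjp1 (-0.92) and Ocln (-0.77) lie lowest, and at day 14 against sham every member lies between -0.15 and 0.35.

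In aged mice, none of the 7 members was called at day 2 after stroke. By edgeR 40 of 6604 genes, or 0.606%, were called (770 genes and 1 member were under 0.05 without adjustment; DESeq2 called 93 genes and 0 members). Tjp1 was at 515 CPM in the female and 312 CPM in the male sham library, against 233 and 298 CPM in the female and 288 CPM in the male stroke libraries. All 3 stroke values were below both sham values, with a log2 fold change of -0.52 ± 0.27 (edgeR adjusted p = 0.485). It ran from -0.85 to -0.17 with each library left out and from -0.57 to -0.099 in other settings. Jam2 (281 ± 49.3 against 457 ± 75.2 CPM; log2 fold change -0.67 ± 0.30, unadjusted p = 0.0423, adjusted p = 0.399) and Esam (1110 ± 173 against 828 ± 35.5 CPM; 0.46 ± 0.26, adjusted p = 0.537) did not overlap either. These make 3 of 7 members without overlap, where 28.6% of all genes had none.

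Cldn5 was at 2451 CPM in the female and 4557 CPM in the male aged sham library, and at 1388, 3100 and 1833 CPM in the stroke libraries (log2 fold change -0.70 ± 0.39, edgeR adjusted p = 0.531). Its log2 fold change ran from -1.11 to -0.15 with each library left out. Ocln differed by -0.59 ± 0.36 (116 ± 45.4 against 186 ± 39.4 CPM), F11r by 0.66 ± 0.38 (211 ± 60.6 against 131 ± 22.2 CPM) and Cdh5 by 0.37 ± 0.46. The difference between the ages in the day 2 change was tested as an interaction. On the log2 scale it was 0.39 ± 0.34 for Tjp1 (edgeR adjusted p = 0.860), -0.51 ± 0.38 for Jam2 (adjusted p = 0.850) and -0.53 ± 0.50 for Cldn5. For the others it was 0.16 (Ocln), 0.06 (Esam), 0.42 (Cdh5) and 0.28 (F11r). With each library left out the interaction ran from 0.011 to 0.70 for Tjp1, -0.73 to -0.34 for Jam2, -0.97 to -0.020 for Cldn5 and 0.036 to 0.89 for Cdh5. No gene was called for it (edgeR 0, with 356 genes at an unadjusted p under 0.05; DESeq2 0). Aged sham against young sham gave 0 called genes by edgeR as well, with 319 genes and 0 members at an unadjusted p under 0.05, and DESeq2 called 6 genes. The log2 differences were -0.70 ± 0.44 for Cdh5, -0.35 ± 0.36 for F11r, -0.16 for Esam, -0.11 for Cldn5, -0.07 for Tjp1, 0.03 for Jam2 and 0.11 for Ocln. With each library left out Cdh5 ran from -1.20 to -0.34 and F11r from -0.63 to -0.080. Of all genes, 13.7% had groups that did not overlap.

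The endothelial cells are divided into 9 subtypes in the deposited annotation, EC1 to EC9, and the junction genes differed in how far they varied among them. The pooled levels mix subtype with group, since the groups gave different shares of each subtype's cells. Pooled over young mice, Esam varied least, from 842 CPM in EC8 to 1221 CPM in EC3 (1.45 times), and Cldn5 most, from 345 CPM in EC8 to 5257 CPM in EC5 (15.2 times). The ratio of the highest to the lowest subtype was 6.08 for Jam2, 3.09 for Ocln, 3.03 for Tjp1, 2.66 for Cdh5 and 2.14 for F11r. The lowest subtype was EC9 for Ocln (65.2 CPM), Cdh5 and F11r, EC8 for Jam2 and EC2 for Tjp1. No young library held 20 cells of EC8 or EC9, so the levels and ratios from these subtypes rest on few cells. EC8 (82 cells) had 4842 CPM of Plvap and 212 CPM of Esm1, markers of fenestrated endothelium, and besides the lowest Cldn5 it had the highest Cdh5 (518 CPM). Within each young group EC8 again had the lowest pooled Cldn5, at 225 CPM after sham surgery, 201 CPM at day 2 and 499 CPM at day 14, from 2.93, 2.98 and 11.96 counts. Jam2 stood out in EC7 (132 cells) at 1158 CPM, against 191 to 492 CPM in the other subtypes. It was highest in EC7 in each young group too (1374, 1136 and 913 CPM). The 2 libraries with at least 20 EC7 cells had 904 and 1466 CPM of Jam2. EC7 carried the arterial markers Sema3g (495 CPM), Gkn3 (284 CPM) and Bmx (273 CPM), which were higher still in EC4 (536, 1952 and 419 CPM), where Jam2 was at 399 CPM. EC6, with 3294 CPM of the venular marker Ackr1 and 980 CPM of Slc38a5, had 3725 CPM of Cldn5 and 104 CPM of Ocln. Subtypes come from clustering these same cells, so their levels are a description.

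**Figure D3:**
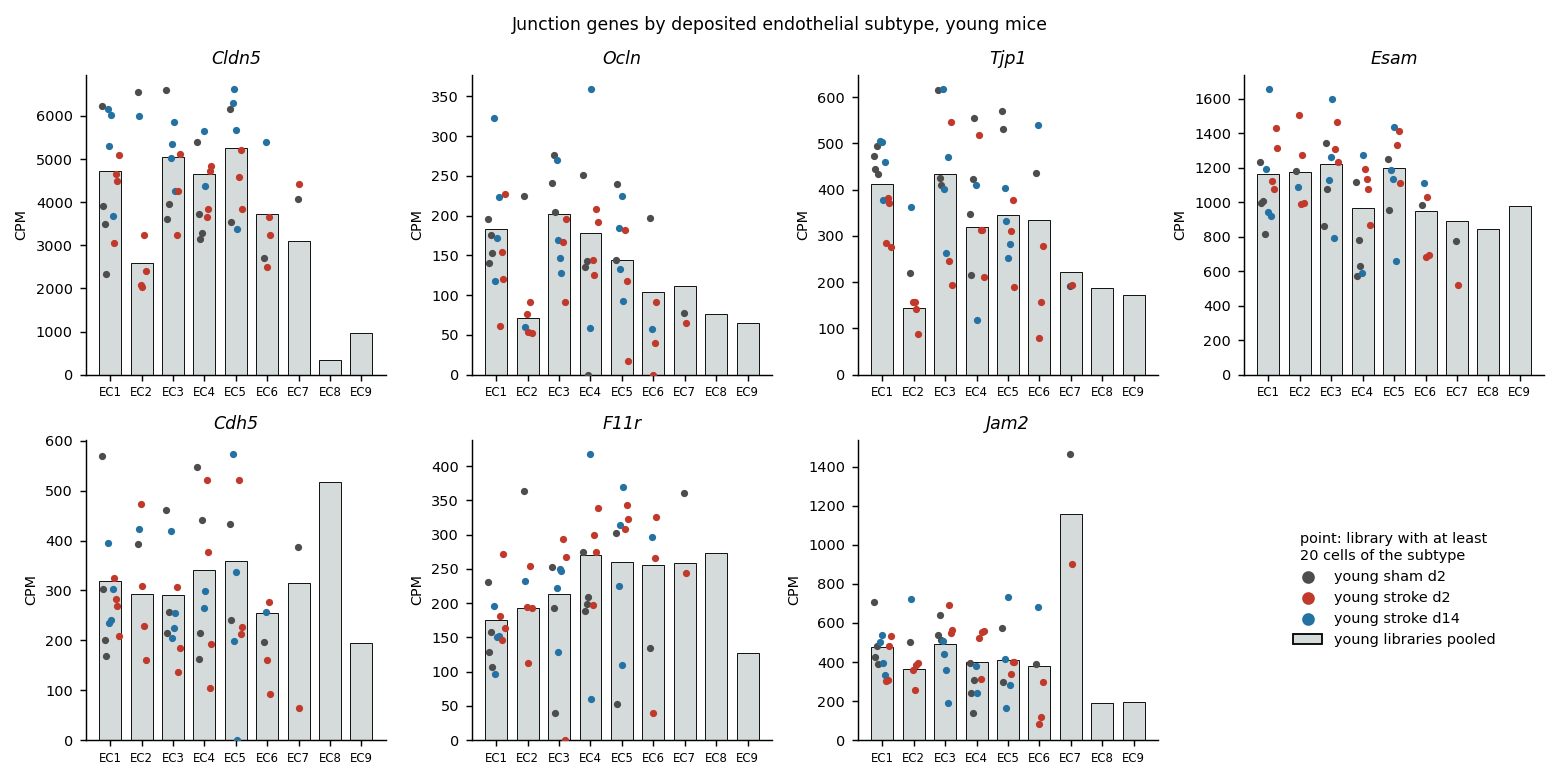
Level of each junction gene (vertical axis, CPM) in the 9 deposited endothelial subtypes of young mice; bars pool all young libraries, and points are libraries with at least 20 cells of the subtype, coloured by group. Cldn5 drops to 345 CPM in EC8, Jam2 peaks at 1158 CPM in EC7, and Tjp1 is at its lowest in EC2 (143 CPM).

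The pooled levels of both Tjp1 and Ocln were lower in EC2 than in EC1. Pooled over young mice Tjp1 was at 143 CPM in EC2 (1118 cells) against 413 CPM in EC1 (2306 cells), Ocln at 71.5 against 183 CPM and Cldn5 at 2581 against 4716 CPM. The pooled levels were 1172 against 1165 CPM for Esam, 293 against 318 CPM for Cdh5, 193 against 175 CPM for F11r and 362 against 475 CPM for Jam2. The barrier transporters Slco1a4, Abcb1a and Mfsd2a followed Tjp1, at 656, 425 and 53.9 CPM in EC2 against 3442, 2263 and 326 CPM in EC1. The endothelial markers as a whole summed to 14064 CPM in EC2 against 26099 CPM in EC1, and the capillary ones to 324 against 1212 CPM. Arterial (216 against 120 CPM), venous (517 against 458 CPM) and fenestrated (115 against 28.2 CPM) markers were higher in EC2. The subtypes were also compared within each of the 10 libraries (6 young, 4 aged) that had at least 20 cells of both. Tjp1 was lower in EC2 in 10 of 10, with a median ratio of 0.462 (0.316 to 0.795), and in the young libraries alone the median ratio was 0.440. Cldn5 was lower in 9 of 10 (median ratio 0.565, and 0.701 in the young), Esam in 8 of 10 (0.900) and Jam2 in 6 of 10 (0.813). Ocln was lower in 8 of 10 (0.349), and in 4 of the 6 young libraries (0.556). It was higher in EC2 in young sham replicate 1 (224 against 196 CPM) and young day 2 replicate 1 (76.8 against 61.6 CPM). F11r was higher in 8 of 10 (1.18) and Cdh5 in 5 of the 9 libraries with a count in EC1 (1.07).

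This subtype made up 2.58 ± 2.21% of EC in young sham libraries (n = 4), 44.4 ± 11.5% at day 2 after stroke (32.7% to 59.2%) and 2.41 ± 1.91% at day 14. In aged mice it was 2.30% after sham surgery (n = 2), 62.2 ± 10.9% at day 2 after stroke (n = 3) and 5.68% in the day 14 library. The subtypes were clustered on genes that themselves differ between the groups, so these shares are values that moved with the result and have no test. The EC1 share went the other way, from 60.1 ± 9.59% after sham surgery to 23.2 ± 4.42% at day 2 and 41.4 ± 12.8% at day 14. With EC2 cells left out, an alternative chosen after seeing the data, the day 2 log2 fold change against sham was -0.54 for Tjp1 (edgeR adjusted p = 0.188) and -0.47 for Ocln (adjusted p = 0.306), and 0 members and 55 genes in all were called instead of 778. For day 14 against day 2 it was 0.41 for Tjp1 (adjusted p = 0.364) and 0.59 for Ocln (adjusted p = 0.254).

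**Figure D4:**
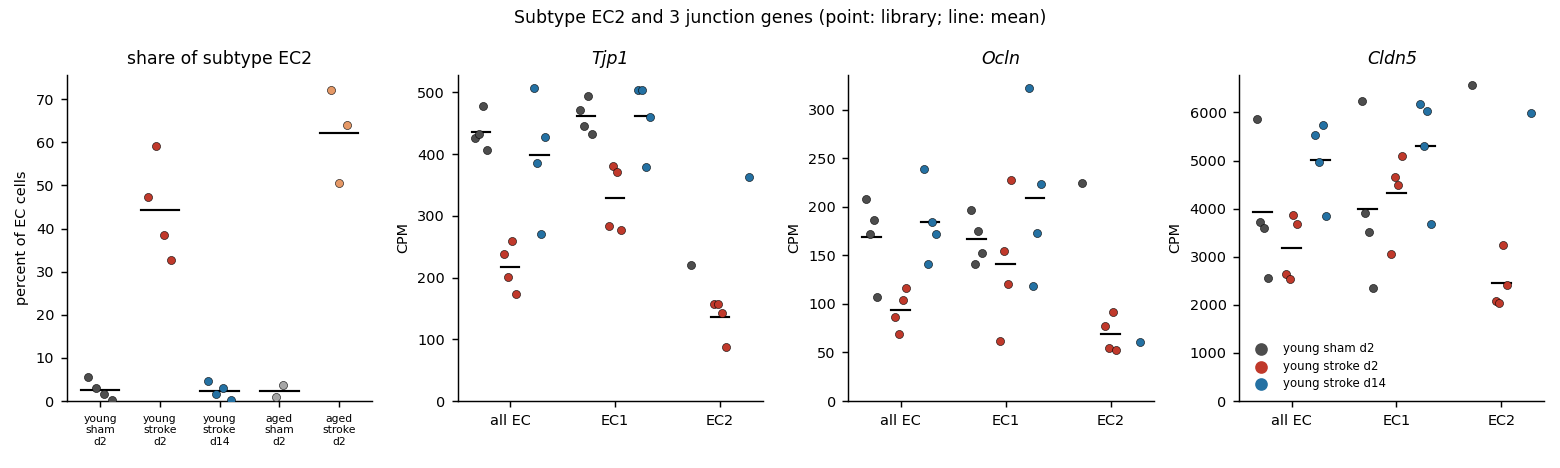
Share of endothelial cells annotated as EC2 (percent, 5 groups), and the level (CPM) of Tjp1, Ocln and Cldn5 in all EC, EC1 and EC2 of young mice; each point is 1 library with at least 20 cells and each line a group mean. The share is 32.7% to 59.2% in the young day 2 stroke libraries and 0.339% to 5.49% in the young sham ones, and Tjp1 in EC2 lies at 87.5 to 158 CPM at day 2 after stroke.

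Within the 4 subtypes tested, Tjp1 passed in none. In EC1 it was at 472, 445, 494 and 433 CPM in the sham libraries and at 284, 381, 371 and 277 CPM at day 2, without overlap (461 ± 27.2 against 328 ± 55.4 CPM; log2 fold change -0.47 ± 0.22, edgeR adjusted p = 0.219). In the EC1 fit 0 members were called (1 at an unadjusted p under 0.05), beside 13 of 2174 genes or 0.598% (458 at an unadjusted p under 0.05; DESeq2 called 47 genes); 9.98% of genes did not overlap. Ocln (-0.20 ± 0.37, adjusted p = 0.783) and Cldn5 (0.15 ± 0.31, adjusted p = 0.803) differed by less than their SE in EC1. The others differed by 0.32 ± 0.25 for Esam, 0.31 ± 0.29 for F11r, -0.23 ± 0.31 for Cdh5 and -0.25 ± 0.27 for Jam2.

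In EC5, Tjp1 was at 293 ± 94.7 CPM at day 2 (3 libraries) against 551 ± 28.2 CPM after sham surgery (2 libraries), a log2 fold change of -0.91 ± 0.41 (edgeR adjusted p = 0.547). These groups did not overlap, nor did those of F11r (0.82 ± 0.62, adjusted p = 0.772) and of 24.9% of the 993 genes tested. Esam (0.25), Cldn5 (-0.06), Cdh5 (-0.10) and Jam2 (-0.18) differed by less than their SE in EC5, and Ocln did not pass the filter on low counts in EC4 or EC5. In EC3, Tjp1 differed by -0.76 ± 0.44 (adjusted p = 0.803) and Ocln, without overlap, by -0.56 ± 0.47; 10.4% of 1008 genes did not overlap. The 5 other members there lay between -0.64 ± 0.45 for Cdh5 and 0.25 ± 0.31 for Esam (Cldn5 -0.18, Jam2 0.07, F11r 0.21). No gene was called in EC3 or EC5 by edgeR (63 and 90 genes at an unadjusted p under 0.05). In EC4, where 0.443% of 902 genes were called, Tjp1 differed by -0.12 and Jam2 by 0.72 ± 0.34 (adjusted p = 0.476), with Esam at 0.39 ± 0.31, F11r at 0.28, Cldn5 at 0.10 and Cdh5 at -0.35 ± 0.47.

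Within EC2 itself, 4 young day 2 stroke libraries but only 1 sham and 1 day 14 library held at least 20 cells, so no test was made. Cldn5 in EC2 was at 2076, 2033, 3250 and 2416 CPM at day 2, below the 6561 CPM of the sham library (30 cells) and the 5989 CPM of the day 14 library (32 cells). Both single libraries were replicate 1 of their group, in the low-mitochondrial set. Cldn5 was high in their EC1 cells too, at 6230 and 6170 CPM, against 3065 to 5085 CPM in EC1 at day 2. Tjp1 in EC2 was at 87.5 to 158 CPM at day 2, 220 CPM in the sham library and 362 CPM in the day 14 library. Ocln in EC2 was at 52.2 to 91.6 CPM at day 2, 224 CPM in the sham library and 60.5 CPM in the day 14 library.

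The share of endothelial cells in which a transcript was counted depends on depth, which was higher at day 2, so cells were also thinned to 300 counts each. Unthinned, Tjp1 was counted in 15.8% of EC after sham surgery, 16.5% at day 2 and 19.7% at day 14. After thinning, the shares were 11.8 ± 0.36%, 7.46 ± 1.89% and 10.8 ± 2.95% (n = 4 libraries each). For Ocln the unthinned shares of 7.38%, 7.90% and 10.7% became 4.63%, 2.98% and 4.56%. For Cldn5 the thinned shares were 62.4%, 59.0% and 74.2% (unthinned 68.9%, 77.5% and 83.0%), and in microglia thinned alike it was counted in no cell. Thinning left out 507 of the sham, 386 of the day 2 and 264 of the day 14 cells, which had fewer counts.

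In microglia, where 3 of the 7 members (Tjp1, F11r and Jam2) passed the filter on low counts, Tjp1 was lower at both times after stroke. It was at 108, 120, 155 and 186 CPM in the sham libraries, at 47.8, 45.7, 0 and 17.98 CPM at day 2 and at 26.6, 25.9, 13.8 and 49.9 CPM at day 14. Neither stroke group overlapped with sham. Day 2 replicate 3 held only 58 microglia, in which 3 counts would amount to 114 CPM. The log2 fold change against sham was -1.88 ± 0.43 at day 2 (edgeR adjusted p = 0.00580) and -1.85 ± 0.39 at day 14 (adjusted p = 0.00702), and both calls were made in all 11 alternatives each, for day 2 also without replicate 3. Between the times it was 0.03 ± 0.43 (adjusted p = 0.988; 6.93% of genes called). Of 10145 genes tested in microglia, 31.4% were called at day 2 (15.7% lower, 35.4% without overlap) and 15.2% at day 14 (4.66% lower, 34.5% without overlap).

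Cldn5, an endothelial transcript, was at 0 CPM in microglia of 11 of the 12 young libraries, all sham libraries among them, and at 37.3 CPM in day 2 replicate 3. The step that made the deposited values fractional could have lowered some to 0, so these values cannot tell whether endothelial RNA was present. Endothelial RNA in microglia was not tested. The share of microglia with Tjp1, thinned to 300 counts, was 4.07% after sham surgery, 0.935% at day 2 and 0.991% at day 14 (unthinned 6.90%, 3.91% and 3.68%). In aged microglia, Tjp1 was at 116 and 62.8 CPM in the female and male sham libraries, at 37.1, 35.6 and 60.4 CPM at day 2 after stroke and at 49.2 CPM at day 14; the aged microglia were not tested. Without TMM scaling the median log2 fold change of all microglial genes moved from -0.04 to -0.49 at day 14 and from -0.05 to -0.22 at day 2, against which the Tjp1 values over all alternatives were -2.28 to -1.64 and -2.10 to -1.60.

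**Figure D5:**
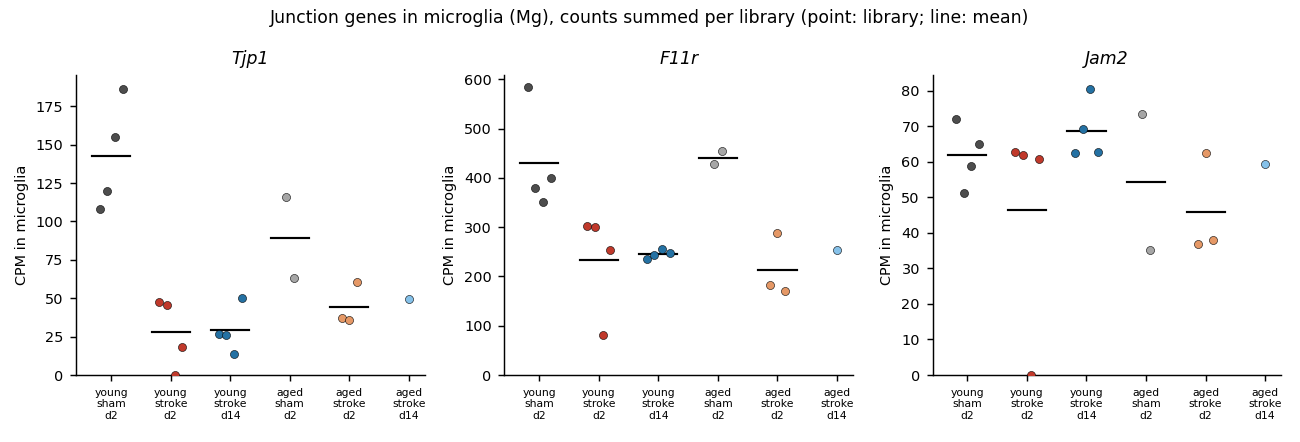
Level of Tjp1, F11r and Jam2 in microglia (vertical axis, CPM of summed counts) in the 6 groups of mice; each point is 1 library and each line a group mean. Tjp1 lies at 108 to 186 CPM in the young sham libraries and at 0 to 49.9 CPM in the young stroke libraries of both times.

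F11r in microglia was at 584, 380, 352 and 400 CPM after sham surgery, 301, 301, 80.7 and 254 CPM at day 2 and 235, 243, 255 and 247 CPM at day 14. Both stroke groups lay below all sham libraries, yet the log2 fold changes of -0.56 ± 0.28 (edgeR adjusted p = 0.133) and -0.34 ± 0.27 (adjusted p = 0.415) were not called. DESeq2 (adjusted p = 0.0167) and library size alone (adjusted p = 0.0481) called F11r at day 2, and library size alone also at day 14 (log2 fold change -0.80, adjusted p = 0.0289). Jam2 was at 51.3 to 72.0 CPM after sham surgery and 62.5 to 80.5 CPM at day 14. Its log2 fold change was 0.63 ± 0.27 with TMM scaling (edgeR adjusted p = 0.116) and 0.16 with library size alone (adjusted p = 0.603). At day 2 against sham Jam2 differed by 0.10 ± 0.28, and between the times Jam2 differed by 0.52 ± 0.28 (adjusted p = 0.301) and F11r by 0.23 ± 0.28. In monocyte-derived cells F11r was at 25.2, 20.6, 86.2 and 117 CPM in the sham libraries, which held 43 to 99 of these cells, and at 83.8, 42.3, 86.2 and 82.1 CPM at day 2. The groups overlapped and their means of 62.3 and 73.6 CPM lay closer than the fitted log2 fold change of 1.26 ± 0.47 (edgeR adjusted p = 0.1301), which was 0.79 with library size alone and 0.97 to 1.71 with each library left out. The median of all genes was 0.29 there and 6.71% of genes were called. At day 14 F11r differed there by 0.96 ± 0.48 from sham (adjusted p = 0.331) and by -0.30 ± 0.32 from day 2. In dendritic cells F11r differed by 0.40 at day 2 (adjusted p = 0.818, 1.01% of genes called) and by 0.99 ± 0.53 at day 14 (adjusted p = 0.530; 1.53% of genes called), and by 0.59 ± 0.40 between the times. No member passed the filter on low counts in the other cell types tested.

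The other junction genes were followed in the endothelial cells as 3 lists: 28 transmembrane proteins, 27 cytoplasmic adaptors and 33 regulators. These lists were chosen with earlier results of these data known, so their counts beside those of all genes are a description. At day 2 against sham, 1 of 11 transmembrane genes tested was higher and 1 lower (median log2 fold change -0.06), 3 of 19 adaptors were lower and none higher (median -0.46), and 7 of 31 regulators were lower and none higher (median -0.36). The median of all genes was 0.00, with the shares of calls given above. The 2 transmembrane genes called were connexins, which form gap-junction channels. Gja4 rose from 24.8 ± 27.9 to 129 ± 17.1 CPM (log2 fold change 2.18 ± 0.48, edgeR adjusted p = 0.00911), with the lowest sham library at 0. In the sham libraries 3 counts amounted to 7.95 to 29.9 CPM, so the sham level of Gja4 rested on few counts. Gja4 may have passed the filter on low counts through the day 2 libraries alone. Gjc1 fell from 219 ± 56.3 to 76.7 ± 15.9 CPM (-1.38 ± 0.31, edgeR adjusted p = 0.0102). The abundant transmembrane genes Pecam1 (0.27, adjusted p = 0.386) and Lsr (-0.11, adjusted p = 0.787) did not pass.

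Among adaptors, the catenin Ctnnb1, which binds cadherins and also carries Wnt signals, fell from 743 ± 160 to 372 ± 114 CPM (log2 fold change -0.92 ± 0.26, edgeR adjusted p = 0.0285). Arhgap29 changed by -0.73 ± 0.21 (adjusted p = 0.0299) and the scaffold Magi3 by -1.55 ± 0.40 (adjusted p = 0.0192). Cgnl1 (-0.46, adjusted p = 0.154) and Ctnna1 (-0.19, adjusted p = 0.604) did not pass. Ctnnb1 counts in the regulators too. Among these, the VEGF receptor Flt1 fell from 4955 ± 465 to 1906 ± 116 CPM (-1.28 ± 0.21, adjusted p = 0.00187), the adhesion receptor Adgrf5 from 2845 ± 747 to 948 ± 221 CPM (-1.51 ± 0.30, adjusted p = 0.00517) and the Wnt effector Lef1 from 553 ± 92.1 to 227 ± 38.5 CPM (-1.17 ± 0.21, adjusted p = 0.00374). Ptprb, the endothelial phosphatase VE-PTP, fell by 0.93 and the Rap activators Rapgef3 and Rapgef6 fell by 1.00 and 1.58 on the log2 scale. Adgrl4 (-0.41, adjusted p = 0.154) and S1pr1 (-0.10, adjusted p = 0.788) did not pass. With each library left out, 6 of the 11 called genes of the 3 lists passed throughout, whereas Ctnnb1, Arhgap29, Magi3, Rapgef3 and Rapgef6 were each lost without at least 1 library (adjusted p up to 0.158). As with Tjp1, the share of EC2 moved with these counts. Without EC2 cells, 55 genes in all were called in this comparison instead of 778. The values of the listed genes in that fit are not given here.

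At day 14 against sham no gene of the 3 lists was called by edgeR or DESeq2: the 2 most abundant of each list differed by -0.01 (Pecam1), 0.15 (Lsr), 0.04 (Ctnnb1), 0.10 (Cgnl1), -0.25 (Flt1) and -0.52 ± 0.30 (Adgrf5) on the log2 scale. Against day 2, 3 of 19 adaptors and 8 of 31 regulators were higher at day 14 and none lower, with medians of 0.37 and 0.44 on the log2 scale beside 0.02 for all genes, and 1 of 11 transmembrane genes was lower. Of all genes, 5.07% were called higher and 6.14% lower in this comparison, which shares its day 2 libraries with that of day 2 against sham. The adaptors were Arhgap29 (1.03), Ctnnb1 (0.96) and Magi3 (1.30). Besides Ctnnb1 the regulators were Flt1 (1.04), Lef1 (1.04), Adgrf5 (0.99), Ptprb (0.83), the angiopoietin receptor Tek (0.77), the transcription factor Foxq1 (0.75) and the lipid transporter Mfsd2a (1.07). Gja4 fell by 2.70 ± 0.49 (edgeR adjusted p = 0.00303), with the limit of the filter on low counts given for it above. Pecam1 (-0.28), Lsr (0.25), Cgnl1 (0.56 ± 0.21, adjusted p = 0.0913), Ctnna1 (0.11), Adgrl4 (0.29) and S1pr1 (-0.24) did not pass. Of the 11 genes called, Gja4, Arhgap29, Flt1 and Lef1 were called with each library left out and the other 7 were not (adjusted p up to 0.168). With the replicate number as a block, Magi3 (adjusted p = 0.0536) and Adgrf5 (adjusted p = 0.0600) were no longer called. In aged mice at day 2 none of the listed genes was called by edgeR, and DESeq2 called 3 regulators as lower.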

How the data were processed

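Drop-seq profiles of sorted brain cells were read from 18 tables, 1 per library. The deposited tables hold fractional values per gene and cell, many just below a whole number, and the fits handled them like expected counts. Of a library's non-zero values, 0.135% to 0.708% were under 1e-06. Of the rest, 0.0559% to 0.235% in the young libraries and 0.776% to 4.52% in the aged ones lay within 1e-06 of a whole number. The step that made them fractional, which could also have lowered values to 0 or near it, the aligner and the filters on cells are not given in the sources used here. Per the submitters' processing notes, the genome build was mm10 and Seurat was used. The authors' deposited metadata give each cell's type, subtype and percent of mitochondrial counts; every deposited cell was kept. A library had 819438 to 5855047 summed counts.

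For each library and cell type, counts were summed, rounded to whole numbers and fitted with edgeR 4.0.16 (quasi-likelihood, TMM, filterByExpr on group, libraries with at least 20 cells of the type, two-sided, Benjamini-Hochberg over all genes tested, called at an adjusted p under 0.05; R 4.3.3). The 3 young groups were fitted together, as were the 4 groups of day 2 over genes present in both tables. CPM values use the unrounded sums, and their SD is over libraries. The SE of a log2 fold change was derived from the edgeR test, as its absolute value over the square root of the F statistic. Named were each member that passed the filter, in every comparison, each called gene of the 3 lists and, for the young comparisons, the 2 most abundant genes of each list not called, and the 3 genes most like each member. The members and lists were chosen with earlier results of these data known. On simulated counts for EC at day 2 against sham (5508 genes), 24.2% of changes of 1 and 87.1% of changes of 2 on the log2 scale were recovered, with 6 of 5320 unchanged genes called. For the same comparison in EC1 (2083 genes) the shares were 35.1% and 97.8%, and in microglia (9796 genes) 7.2% and 55.6%. Same-numbered libraries of day 2 and day 14 after stroke deviated together in all 4 pairs (correlations of 0.14 to 0.50, each over 0.1, with 7 of 8 libraries closest to their own number). The numbers were therefore taken as pairs for that comparison, but only in an alternative fit with a replicate block. Unless a block is named, the values given come from the fit without it. Replicates 1 and 2 of both groups are also the stroke libraries of low mitochondrial percentage. Sham and stroke libraries were not taken as pairs, although the block fit numbered the sham libraries too. Alternatives were DESeq2 1.42.0, other scaling, filters, cell selections and groups in the fit, a term for the low-mitochondrial set, a replicate block, sex, and each library left out.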

Additional observations from a re-analysis of the deposited data

Results flagged for a closer look

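Single libraries stood far from the 3 others of their group in 5 of 64 groups of 4 libraries, judged by the gap to the nearest library as a share of the group's range (above Dixon's 95% critical value); chance marks about 1 in 20 groups. In young sham EC, replicate 1 had 525 CPM of Cdh5 against 220 to 246 CPM in the others, and 265 CPM of F11r against 131 to 154 CPM. In EC at day 14 after stroke, replicate 1 had 429 CPM of Cdh5 against 249 to 258 CPM. Both libraries belong to the low-mitochondrial set. In microglia at day 2 after stroke, replicate 3 was at 2.27e-13 CPM of Jam2, in effect 0, against 60.8 to 62.8 CPM; it held 58 microglia. In monocyte-derived cells at day 2 after stroke, replicate 2 had 42.3 CPM of F11r against 82.1 to 86.2 CPM.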

How the results depend on the processing

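The fall of Tjp1 in EC at day 2 was called in every alternative but the one without EC2. The count of members called at day 2 was 2, and 1 with DESeq2, without a filter on low counts, with the replicate block, with counts rounded up per cell, with cells of at least 500 counts and with only the compared groups; it was 0 without EC2 and 1 to 2 with each library left out. In the replicate block fit Ocln had an adjusted p of 0.0531. Same-numbered libraries correlated at -0.096 to -0.017 between sham and day 2 (0 of 8 libraries closest to their own number) and at -0.13 to 0.16 between sham and day 14 (2 of 8), and were not taken as pairs there. Between day 2 and day 14, where they were, the block kept the calls of Ocln (adjusted p = 0.0366) and Tjp1 (adjusted p = 0.0431) and changed no call of a member; 653 genes were called with it. At day 14 against day 2, 2 members were called, 0 without the filter, 0 without EC2, and 0 to 2 with each library left out. In microglia, 1 member was called at each time against sham, 2 at day 2 with DESeq2, 2 at day 2 and 2 at day 14 with library size alone.

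Directions that turned were all of differences that were not called. In EC at day 14 against day 2, Cdh5 became -0.019 with counts rounded up, -0.084 with cells of at least 500 counts and -0.0015 without cells holding leukocyte transcripts (-0.20 to 0.24 with each library left out), F11r 0.048 with at least 500 counts, and Jam2 -0.0020 without the filter, -0.0096 rounded up and -0.051 without EC2 (-0.11 to 0.11). Against sham at day 14, Cdh5 was 0.0039 with the replicate block (-0.26 to 0.32), Ocln -0.040 to 0.20 and Tjp1 -0.26 to 0.0029 with each library left out. At day 2 against sham, Cldn5 was 0.054 without EC2 (-0.34 to 0.0027) and Cdh5 -0.28 to 0.30. In aged against young sham, Cldn5 was 0.0031 with sex as a covariate (-0.66 to 0.30), Jam2 -0.014 with library size alone and -0.017 with at least 500 counts (-0.19 to 0.20), Ocln -0.053 to 0.32 and Tjp1 -0.42 to 0.27. In aged stroke against aged sham Cdh5 was -0.040 to 0.86. For the interaction, Ocln was -0.10 with at least 500 counts (-0.12 to 0.38) and Esam -0.070 without the filter and -0.066 with at least 500 counts (-0.064 to 0.16). In EC1, Cldn5 was -0.047 to 0.43, Ocln -0.69 to 0.11 and Cdh5 -0.41 to 0.21. In microglia, library size alone gave -0.27 for Tjp1 (-0.35 to 0.25) and -0.085 for F11r at day 14 against day 2, and Jam2 at day 2 was -0.10 with DESeq2 and -0.070 with library size alone (-0.0017 to 0.21).

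Genes called in EC at day 2 numbered 778, with 55 (without EC2) to 892 in other settings and 320 to 991 with each library left out; at day 14 against day 2 they numbered 654 (29 to 823; 324 to 523), in aged stroke 40 (25 to 135; 0 to 26), in EC1 13 (11 to 48; 0 to 165). For the comparisons with none called, the highest counts were 11 at day 14 against sham, 110 in aged against young sham and 124 for the interaction. In microglia they were 3182 (3129 to 3409; 2094 to 3120), 1544 (1666 to 3425; 791 to 2573) and 703 (512 to 1157; 276 to 735). Library size alone moved the split to 302 higher and 467 lower at day 2 in EC (402 and 376 with TMM) and to 405 and 244 at day 14 against day 2 (296 and 358), with a median over all genes of 0.12 in place of 0.02. In microglia it gave 1273 and 2118 at day 2 (1588 and 1594), 670 and 2755 at day 14 (1071 and 473) and 202 and 955 between the times; in monocyte-derived cells 180 and 175 at day 2 (457 and 85). The cause of these shifts was not tested. Cells marked by Scrublet at its own threshold were too few (at most 0.225% of a library) to leave out, so cells in the top 5% of scores were left out instead, chosen after seeing the data. On simulated counts most changes of 1 on the log2 scale were missed in EC, EC1 and microglia, as given with the processing. The changed genes were drawn from all that passed the filter, so these shares need not hold for the members. Members not called may still differ.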

Other observations

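The single aged library at day 14 after stroke, which entered no comparison, had 2027 CPM of Cldn5, 102 CPM of Ocln, 271 CPM of Tjp1, 1125 CPM of Esam, 170 CPM of Cdh5, 94.9 CPM of F11r and 220 CPM of Jam2 in its 176 endothelial cells. Its F11r and Jam2 were the lowest, and none of its members the highest, among the 18 libraries. It also had the fewest summed EC counts (58613), so that 3 counts amounted to 51.2 CPM. Its F11r rested on 5.56 counts and its Ocln on 6.0.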
